A study of Rattus with 4 samples.

Results

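Peaks called in immunoprecipitates of RBM25 were examined in the genes of translation initiation and elongation factors. The members are peaks whose deposited gene name begins with Eif or Eef and a digit, and they numbered 54 of 2696 peaks in replicate 1 (2.00%) and 174 of 8108 in replicate 2 (2.15%). They fell in 29 genes. The series profiled H9C2 cells, an established rat myoblast line of embryonic heart origin, and has 4 samples: RBM25_IP (2 immunoprecipitates of RBM25) and RBM25_input (2 inputs, not analysed here). No drug, time point or genetic change is given for these 4 samples. The design text of the series mentions cells that overexpress RBM25 for expression profiling, and whether the cells used here did so is not stated. All lysates came from irradiated cells, the step that joins RNA to protein in this kind of assay, and were treated with a DNase and with the nuclease MNase before stranded libraries were made. Nothing in the labels states that the replicates were separate cultures. Each immunoprecipitate has 1 deposited list of peaks, and the strength of a peak is its tags, which are read numbers per 50-nt bin and thus already per length. The smallest peak in the lists had 19 and 20 tags in replicates 1 and 2, and the median over all peaks was 24 and 26. Library depth is unknown, so a gene without a peak may lie below these minimums, and the 2 lists differ in length in a way that can follow depth. Of 14 muscle and myoblast markers, Cdh15, Tnnt2, Tnnc1 and Tpm1 had a peak in at least 1 list. Des, Myod1, Myog, Myf5, Actc1, Acta1, Myh3, Tpm2, Mybph and Ryr1 had none. Of 10 markers of other cell types only Krt8 had a peak. Over all protein-coding genes the share with a peak in either list was 7.61%.

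RBM25 is a splicing regulator that associates with the U1 snRNP, the particle that recognises 5′ splice sites, so its contacts on pre-mRNA can include exon-intron boundaries. Translation factors act in a fixed order on the ribosome. eIF2 brings the initiator tRNA to the small subunit, eIF3 holds the initiation complex together, and the eIF4 group recruits the capped mRNA and unwinds its leader. eIF5 and eIF5B complete start codon selection and subunit joining. eEF1 then delivers aminoacyl-tRNA to the ribosome and eEF2 moves the ribosome along the mRNA. The proteins work in the cytoplasm, and the peaks described here concern the RNA of their genes, not the proteins.

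A table of rat gene names (RefSeq, assembly GRCr8, used for names alone) holds 75 protein-coding symbols with the Eif or Eef pattern, of which 8 are gene copies not placed in any complex. Of the 75, 18 had a peak in replicate 1 (24.0%), where 3.68% of all protein-coding genes in the table did, and 28 had one in replicate 2 (37.3%), where 7.25% did. A peak in either list was found for 29 genes (38.7%, against 7.61% of protein-coding genes), and in both lists for 17 genes (22.7%, against 3.31% of protein-coding genes). A peak at the same position and strand in both lists was found for 15 genes (20.0%, against 2.62%). Genes were matched by the name in the lists, for members and background alike, so a copy listed under a LOC identifier, such as Eif4a1l below, counts as without a peak. Genes that are not transcribed in these cells count in that background, and expression was not measured in the lists, so its part in these shares was not tested. Of the 18 genes in replicate 1, 17 had a replicate 2 peak (94.4%, 95% Wilson interval 74.2 to 99.0), where 89.7% of all genes with a replicate 1 peak did. The exception was Eif2ak4. The other 11 genes of replicate 2 had no replicate 1 peak.

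Recurrence of single peaks was assessed by overlap on the same strand. Of the 54 replicate 1 peaks, 40 overlapped a replicate 2 peak (74.1%, 61.1 to 83.9). Of all replicate 1 peaks 61.0% did, and of those assigned to other genes 61.9%, which lies within the interval. Of the 40 pairs, 34 had the same start and end. The 40 pairs were 19 sense and 21 antisense. In the opposite direction, 40 of 174 replicate 2 peaks had a replicate 1 counterpart (23.0%, 17.4 to 29.8), where 20.3% of all replicate 2 peaks did. Intervals cover counting error only, and peaks of the same gene are not independent. Each list was also cut at the median of the p-values that the authors deposited. Of 28 replicate 1 peaks on the better side, 14 then recurred (50%), and 9 genes held a shared peak in place of 15. That cut also removed replicate 2 peaks that could be counterparts, and the same share over all peaks is not given here.

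**Figure D1:**
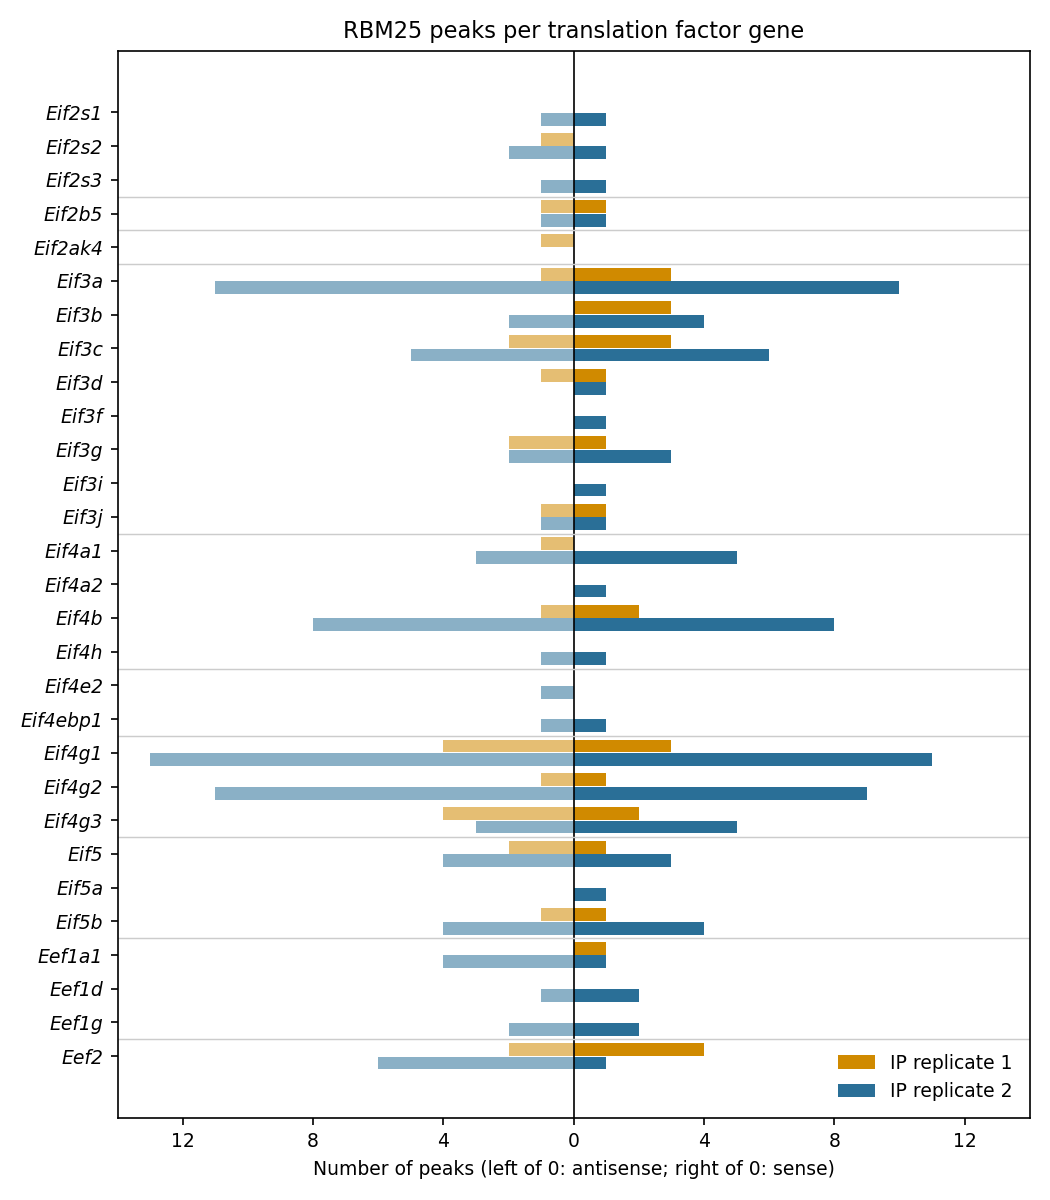
Number of peaks in each of the 29 translation factor genes with a peak, by immunoprecipitate replicate; bars to the right of 0 count sense peaks, paler bars to the left count antisense peaks, and grey lines separate the factor groups. Eif4g1, Eif3a and Eif4g2 hold the most replicate 2 peaks (24, 21 and 20), and 25 of the 29 genes have more peaks in replicate 2 than in replicate 1.

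Peaks were unevenly spread over the genes. Eif3a, Eif4g1 and Eif4g2 together held 13 of 54 member peaks in replicate 1 and 65 of 174 in replicate 2 (37.4%). A gene had a median of 2.5 peaks in replicate 1 and 3.5 in replicate 2, and 4 and 6 genes had a single peak. In replicate 2, 25 genes had more peaks than in replicate 1, Eif2b5 and Eif3j had as many, and Eif2ak4 and Eif3d had fewer.

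Genes named for eIF2, the complex that carries the initiator tRNA, had 1 peak in replicate 1 and 7 in replicate 2. The replicate 2 peaks had a median of 26 tags, equal to that of all peaks in that list. None of the eIF2 peaks exceeded 28 tags. Of 6 genes, listed by name and not as subunits, Eif2s1, Eif2s2 and Eif2s3 had peaks. These 3 encode the alpha, beta and gamma subunits. The peak that recurred was antisense to Eif2s2, on chromosome 3 at 143389700 to 143389750 (mRatBN7.2), with 20 and 21 tags in replicates 1 and 2. Eif2s1 had a boundary peak, which here means a sense peak that holds both coding sequence and intron, with 26 tags and an antisense peak in the same bin with 28, both in replicate 2 alone. Eif2s3 likewise had a boundary peak of 21 tags and an antisense peak of 20 in replicate 2. Eif2a, Eif2d and Eif2s3y, the other genes of that list, had no peak. Of the 5 genes of eIF2B, the exchange factor that recharges eIF2 with GTP, Eif2b5 had peaks, and Eif2b1, Eif2b2, Eif2b3 and Eif2b4 had none. The same bin of Eif2b5 was called on both strands in both lists, on chromosome 11 at 80398600 to 80398650. Its sense peak had 25 and 24 tags in replicates 1 and 2, with coding sequence over 80% and intron over 20% of its length, and its antisense peak had 23 and 25. All 4 values lie within 3 tags of each other. Among the kinases that phosphorylate eIF2, Eif2ak4 (the amino acid sensor GCN2) had an antisense peak of 20 tags in replicate 1 alone. Eif2ak1, Eif2ak2 and Eif2ak3 had no peak.

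The eIF3 genes held some of the tallest member peaks, the highest in Eif3a with 56 and 125 tags in replicates 1 and 2. Over all peaks the maximum was 453 and 651 tags. Of 13 listed genes 8 had a peak, 6 of them in both lists, and 16 of 19 replicate 1 peaks recurred among the 48 peaks of replicate 2. Eif3e, Eif3h, Eif3k, Eif3l and Eif3m had none. Eif3a encodes the largest subunit, a scaffold of the complex. All 4 of its replicate 1 peaks recurred, and replicate 2 had 17 more. The strongest recurring peak, at chromosome 1, 259914300 to 259914350, was sense, with coding sequence over 92% and intron over 8% of its length, and had 56 and 52 tags in replicates 1 and 2. The antisense peak in that bin had 46 and 41 tags. Boundary peaks at 259916400 to 259916450 and 259914750 to 259914800 had 41 and 20 tags in replicate 1 and 46 and 26 in replicate 2. The tallest member peaks of replicate 2 also lay in Eif3a, with 125 tags at 259912300 to 259912350 and 110 at 259910950 to 259911000. Both spanned a boundary, and neither had a replicate 1 counterpart.

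Eif3c, which encodes a core subunit that contacts eIF1 and eIF5, had 5 peaks in replicate 1, and all 5 recurred. At chromosome 1, 181145850 to 181145900, the antisense peak had 43 and 45 tags in replicates 1 and 2, and the sense boundary peak had 33 and 37. A further boundary peak at 181149400 to 181149450 had 28 and 42 tags. Eif3b, another core subunit gene, had its strongest recurring peak wholly in coding sequence at chromosome 12, 14220700 to 14220750, with 36 and 60 tags in replicates 1 and 2. Eif3b had 3 sense and 0 antisense peaks in replicate 1, and 4 and 2 in replicate 2. Eif3g, the gene of an RNA-binding subunit, had 3 replicate 1 peaks on chromosome 8, which all recurred. The antisense peak at 19433250 to 19433300 had 34 tags in each replicate, and the sense boundary peak in that bin had 27 and 23. Eif3j, a loosely attached subunit gene, had a boundary peak of 23 and 22 tags at chromosome 3, 108997800 to 108997850, and an antisense peak of 22 and 21 tags at 108998200 to 108998250. The opposite strand of the first bin was also called in both lists, with 28 and 35 tags, under the identifier LOC691675, which did not match the name table. Eif3d, the gene of a cap-binding subunit, shared no position. Replicate 1 had 1 bin called on both strands (19 tags sense and 21 antisense) and replicate 2 a coding sequence peak of 28 tags elsewhere in the gene. Eif3f and Eif3i had 1 boundary peak each in replicate 2, both of 21 tags.

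The eIF4G genes encode the scaffolds that join the cap, the helicase and eIF3, and all 3 had peaks in both lists, 15 in replicate 1 and 52 in replicate 2. Eif4g1 had 7 peaks in replicate 1, of which 5 recurred, and 24 in replicate 2. At chromosome 11, 80234500 to 80234550, the sense peak had 23 and 48 tags in replicates 1 and 2, and the antisense peak 25 and 42. The bin at 80238850 to 80238900 was called on both strands in replicate 1, with 26 tags sense and 25 antisense, and on neither in replicate 2. A coding sequence peak of 82 tags at 80228400 to 80228450 was called in replicate 2 alone. Eif4g2 encodes a relative of eIF4G that lacks the cap-binding protein's site and supports cap-independent initiation. It had 2 peaks in replicate 1, both recurring, and 20 in replicate 2. The recurring peaks were an antisense peak at chromosome 1, 165185750 to 165185800, with 29 and 31 tags, and a sense peak wholly in intron at 165192950 to 165193050, with 23 and 31.5 tags. Each of 2 Eif4g2 bins that carried no replicate 1 peak was called on both strands in replicate 2. The bin at 165186050 to 165186100 had 87 tags sense and 91 antisense, and that at 165186300 to 165186350 had 81 and 93. Eif4g3 had 6 and 8 peaks over 59.9 kb of chromosome 5, the widest spread among the members. At 150360200 to 150360250 its antisense peak had 44 and 30 tags in replicates 1 and 2, and its sense boundary peak 35 and 23. Here replicate 1 was the higher, whereas in the shared Eif4g1 bin replicate 2 was.

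**Figure D2:**
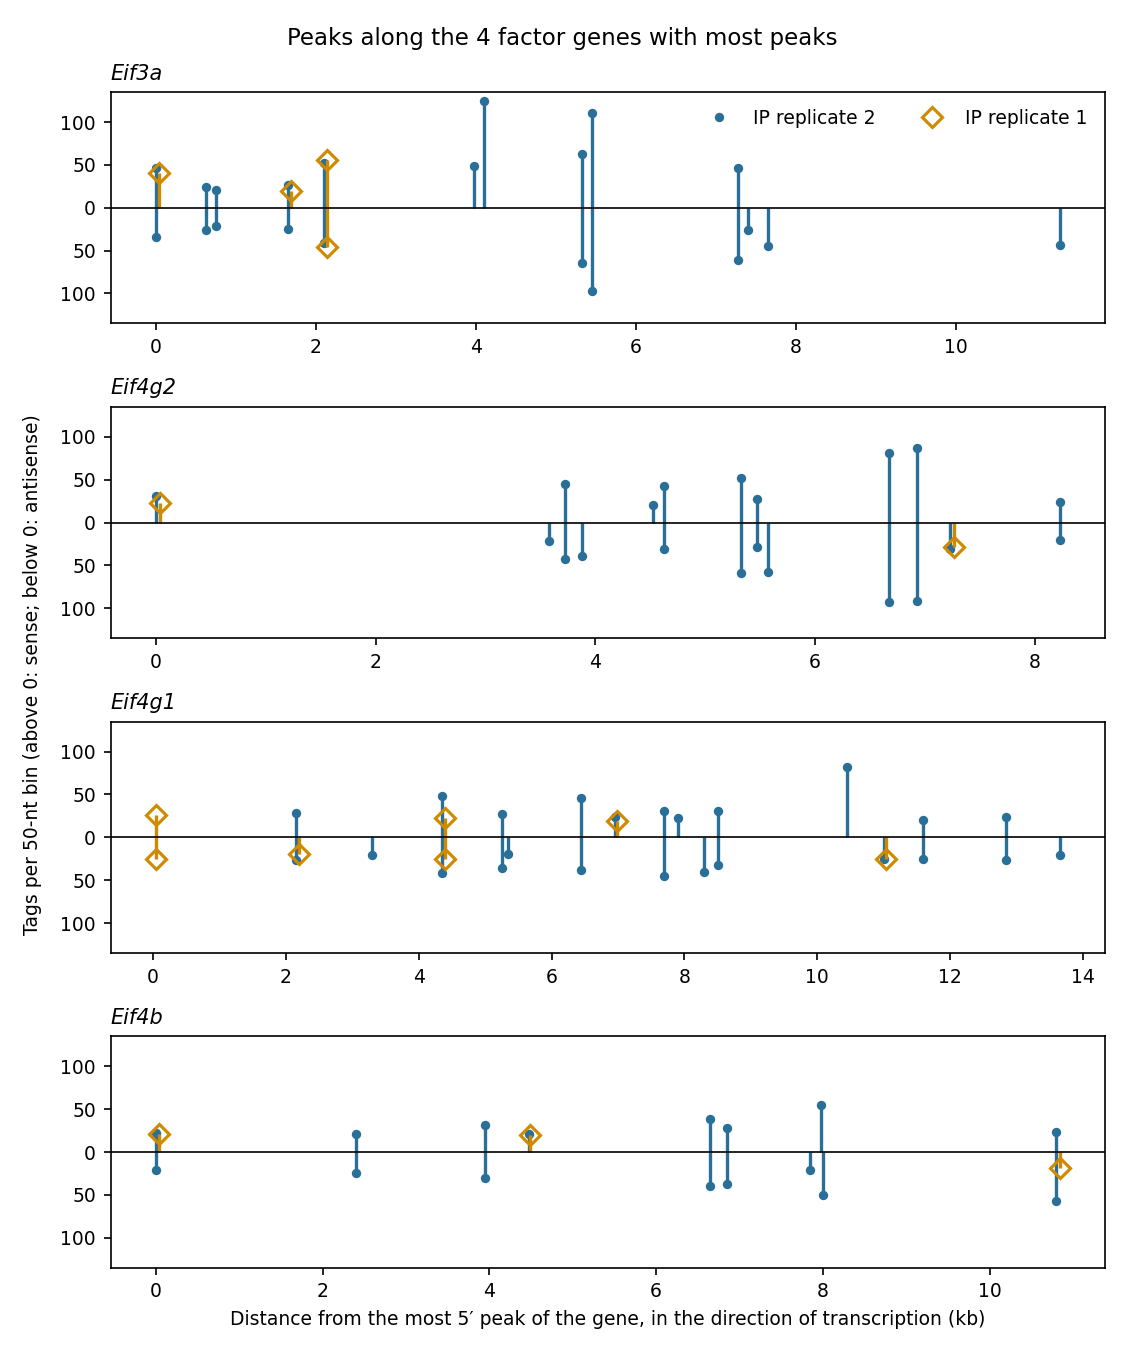
Tags per 50-nt bin of each peak along Eif3a, Eif4g2, Eif4g1 and Eif4b, against distance in kb from the most 5′ peak, with sense peaks above 0 and antisense peaks below; filled circles are replicate 2 and open diamonds replicate 1, which is drawn 0.04 kb to the right. The replicate 1 peaks of Eif3a all lie within 2.1 kb of the first peak, while those of replicate 2 reach 11.3 kb and include bins above 80 tags with no replicate 1 peak.

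The helicase eIF4A and its helpers eIF4B and eIF4H had 4 peaks in replicate 1, all recurring, and 27 in replicate 2. Eif4b had 3 peaks in replicate 1 and 16 in replicate 2, of which 8 were sense and 8 antisense. Its recurring sense peaks were boundary peaks on chromosome 7, at 133213050 to 133213100 with 21 and 22 tags, and at 133217500 to 133217550 with 20 tags against 21 in a longer replicate 2 peak. Its antisense peak at 133223850 to 133223900 had 19 and 57 tags in replicates 1 and 2, the widest gap among the 40 pairs. Eif4a1, the main cytoplasmic helicase gene, had an antisense peak of 24 and 32 tags at chromosome 10, 54385900 to 54385950, and 7 further peaks in replicate 2. Of these, 2 lay wholly in intron. The bin at 54386300 to 54386350 had 25 tags sense, and an opposite-strand peak of 25 tags that the list assigns, as antisense, to an identifier the name table gives as Snord10, a small nucleolar RNA gene. The bin at 54389500 to 54389550 had 21 tags, with an opposite-strand peak of 23 assigned to the coding sequence of the copy Eif4a1l. Eif4a2 had a single peak, wholly in intron in replicate 2, with 29 tags at chromosome 11, 77766650 to 77766700. Its opposite-strand peak, also of 29 tags, was assigned as antisense to an unnamed small nucleolar RNA gene. Of the 4 peaks wholly in intron that members had in replicate 2, 2 thus lay in bins whose opposite-strand peak was annotated as antisense to a small nucleolar RNA gene, which places that gene on the same strand as the Eif4a1 or Eif4a2 peak. Eif4h had a boundary peak of 30 tags and an antisense peak of 27 in replicate 2. Eif4a3, a core protein of the exon junction complex and not an initiation factor despite its name, had none.

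Genes around the cap-binding protein eIF4E were the least represented part of the eIF4 group. Of 8 listed genes, none had a peak in replicate 1 and 2 had one in replicate 2. Over all protein-coding genes the shares were 3.68% and 7.25%, so the low rank holds within the eIF4 group alone. In replicate 2 Eif4ebp1, which encodes a repressor of eIF4E, had a boundary peak of 21 tags and an antisense peak of 23. Eif4e2, a homologue of eIF4E, had an antisense peak of 20 tags. Eif4e, Eif4e1b, Eif4e3, Eif4ebp2, Eif4ebp3 and Eif4enif1 had none.

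Among the eIF5 genes, Eif5, whose product triggers GTP hydrolysis on eIF2, had 3 peaks in replicate 1 that all recurred and 7 in replicate 2. The antisense peak at chromosome 6, 130593200 to 130593250 had 44 and 27 tags in replicates 1 and 2. A sense peak in that bin, mostly intron, was called in replicate 2 alone with 41 tags. The coding sequence peak at 130592850 to 130592900 had 20 and 26 tags, and the antisense peak in the next bin 25 and 31. Eif5b, which encodes the GTPase that joins the ribosomal subunits, had 2 and 8 peaks. Its bin at chromosome 9, 40245450 to 40245500 was called antisense in both lists, with 28 and 24 tags, and sense in replicate 1 alone, with 23 tags. Eif5a, the gene of a hypusine-carrying factor that helps the ribosome through stalls, had 1 peak, in replicate 2, with 43 tags and with 58% of its bin in 5′ UTR and 42% in intron. Eif5a2 had none, nor did Eif6 or the 5 genes Eif1, Eif1a, Eif1ad, Eif1ax and Eif1b.

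Elongation factor genes shared 2 positions between the lists, both in Eef2. Of 6 listed eEF1 genes, Eef1a1, Eef1d and Eef1g had peaks, 1 in replicate 1 and 12 in replicate 2, and 0 were shared by position. Eef1a1, which encodes the protein that delivers aminoacyl-tRNA, had a coding sequence peak of 26 tags in replicate 1 at chromosome 8, 79342500 to 79342550. In replicate 2 it had 1 sense and 4 antisense peaks of 22.5 to 29 tags, in other bins. The exchange factor subunit genes Eef1g and Eef1d had 4 and 3 peaks in replicate 2 alone, with up to 51 and 24 tags. The Eef1g bin at chromosome 1, 205870400 to 205870450 had 41 tags sense and 51 antisense, and only 2% of it was coding sequence. Eef1a2, Eef1b2, Eef1e1 and the methyltransferase genes Eef1akmt1, Eef1akmt2, Eef1akmt3 and Eef1akmt4 had no peak. Eef2 had 6 peaks in replicate 1 and 7 in replicate 2, of which 2 were shared. Its sense peaks numbered 4 in replicate 1 and 1 in replicate 2, and its antisense peaks 2 and 6. The shared sense peak lay on chromosome 7 at 8537350 to 8537450 in replicate 1, with 29 tags, and at 8537400 to 8537450 in replicate 2, with 25. The tallest replicate 1 peak of Eef2, antisense with 43 tags at 8537350 to 8537400, had no replicate 2 counterpart. Eef2k and Eef2kmt had none.

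Of the genes called in a single list, the 3 with the most tags in that list were taken by the rule for named genes. In replicate 2 these were Eef1g (51 tags, antisense), Eif5a (43 tags) and Eif4h (30 tags, sense). In replicate 1, Eif2ak4 with 20 tags was the only such gene. Rat also has 124 pseudogene symbols of this pattern, among them 20 of Eef1a1, 16 of Eef1g, 9 of Eif5 and 8 of Eif4a1. How reads that match several copies were assigned is not given in the sources used here, so the placement of peaks in these genes is uncertain. None of the pseudogenes had a peak under its symbol. The identifier LOC682402, which the name table gives as Eif4g1-ps1, had 2 antisense peaks in replicate 1 with 25 and 20 tags, and both recurred, with 21 and 37 tags in the same order. Replicate 2 also had a sense peak of 33 tags in its noncoding exon, opposite the antisense peak of 37.

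The location of peaks was then compared with that in all other genes. In replicate 1, 26 of 54 member peaks were antisense (48.1%, 35.4 to 61.1), against 53.8% of the peaks assigned to other genes, and in replicate 2, 88 of 174 were (50.6%, 43.2 to 57.9), against 50.7%. In both lists the share lay close to that of other genes. By gene, sense peaks were in the majority in 6 genes of replicate 1 and 11 of replicate 2, and antisense peaks in 7 and 8.

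Boundary peaks made up most sense peaks. They were 17 of 28 in replicate 1 (60.7%, 42.4 to 76.4), against 64.0% in other genes, and 61 of 86 in replicate 2 (70.9%, 60.6 to 79.5), against 68.1%. By factor group they were 9 of 12 for Eif3 in replicate 1 and 19 of 27 in replicate 2. For all Eif4 genes they were 5 of 8 and 29 of 41, for Eif5 1 of 2 and 6 of 8, for Eif2 2 of 3 in replicate 2, for Eef1 0 of 1 and 4 of 5, and for Eef2 1 of 4 and 0 of 1. In all, 23 of the 29 genes had a boundary peak in at least 1 list. Coding sequence filled the larger part of the bin in 11 of 17 boundary peaks of replicate 1 and 39 of 61 of replicate 2 (64.7% and 63.9%, against 56.3% and 60.6% in other genes). The median coding share was 80% and 68%, against 56% and 60% in other genes. When coding sequence and intron each had to fill at least 10% of the peak, the boundary share of members over both lists was 54.4% in place of 68.4%. The share in other genes under that definition is not given here, so 54.4% cannot be set against the shares above.

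Sense peaks wholly in coding sequence were 10 of 28 in replicate 1 (35.7%, 20.7 to 54.2), against 16.3% in other genes (14.3 to 18.5), and 19 of 86 in replicate 2 (22.1%, 14.6 to 31.9), against 16.9% (15.7 to 18.1). The excess over other genes was thus smaller in the longer list. Of the 10 replicate 1 peaks, 3 lay in Eef2, none of which recurred, and 2 in Eif3b, which both recurred. The replicate 1 share thus rests in part on few genes. Peaks that touch a UTR were 0 of 28 in replicate 1 (upper limit 12.1%), against 12.2% in other genes, and 2 of 86 in replicate 2 (2.33%, 0.640 to 8.09), against 9.42%. The 2 were the Eif5a peak and a 3′ UTR peak of Eif4a1 with 23 tags. In ribosomal protein genes, the other large gene family of the translation apparatus, 3 of 16 and 18 of 65 sense peaks touched a UTR (18.8% and 27.7%). These differences between gene groups were not tested, and the transcript structure of the groups was not used here.

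**Figure D3:**
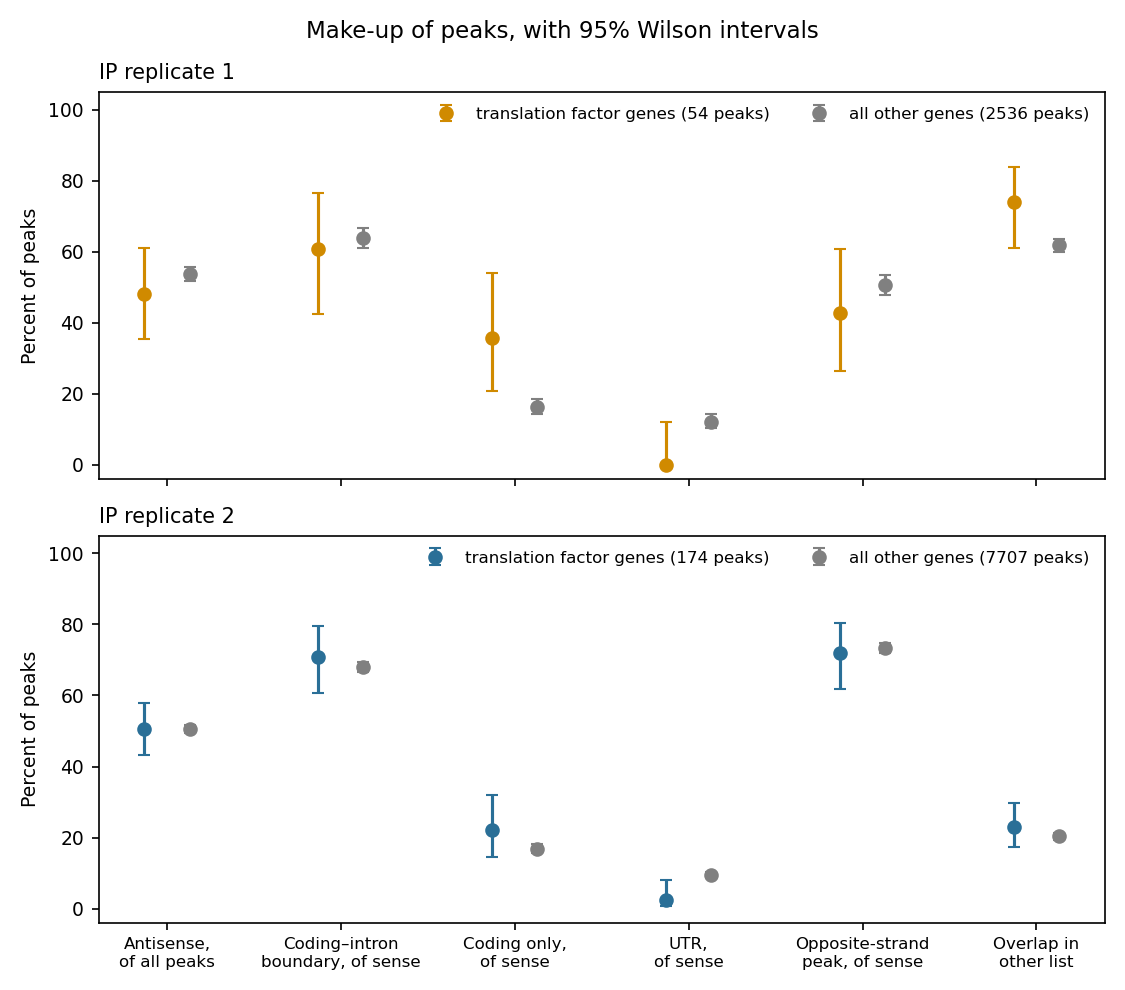
Percent of peaks of each kind in translation factor genes (coloured) and in all other genes (grey), for immunoprecipitate replicates 1 and 2. Bars are 95% Wilson intervals. The denominator is given under each kind apart from overlap in the other list, which is a share of all peaks of the gene group. Antisense and boundary shares overlap between the gene groups in both lists, and peaks touching a UTR are at 0% and 2.33% in translation factor genes against 12.2% and 9.42% in other genes.

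Many bins were called on both strands. A sense peak with an opposite-strand peak in the same bin of the same list was found 12 times among 28 sense peaks in replicate 1 (42.9%, 26.5 to 60.9), against 50.7% in other genes, and 62 times among 86 in replicate 2 (72.1%, 61.8 to 80.5), against 73.5%. In these pairs the opposite strand held a median of 53.7% of the tags in replicate 1, with a range from 45.1% to 59.7%. In replicate 2 the median was 50.9%, and the range ran from 39.7% at Eif5 to 70.4% at Eif4b. The opposite strand was the higher in 8 of 12 pairs of replicate 1 and 32 of 62 of replicate 2. In 7 bins both strands were assigned to the member and shared between the lists, and at the Eif3j bin described above the opposite strand was shared under another identifier. A pair enters only where both strands reach the lowest called tags, so more unequal bins are not among these pairs. Of the strongest shared peaks of the 15 genes, ranked by replicate 1 tags, 9 were antisense and 6 sense. Ranked by replicate 2 tags, the orientation differed in Eif2b5, Eif4b, Eif4g1 and Eif4g2. In Eif2s2, Eif4a1 and Eif5b only antisense positions were shared. With sense peaks alone, 12 genes held a shared peak.

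Across the 40 shared pairs, tags were higher in replicate 2 in 25, lower in 13 and equal in 2. The median ratio of replicate 2 to replicate 1 was 1.06, with a range from 0.614 at Eif5 to 3.0 at Eif4b. Over all 1649 shared pairs of the series the median ratio was 1.24, and 76.0% were higher in replicate 2, against 62.5% of the member pairs. Spearman's rho was 0.489 over the member pairs and 0.434 over all shared pairs. It is a description in which neighbouring peaks share a gene and both lists share a lower limit on tags. The tags are not known to be scaled for depth, so no change was tested.

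**Figure D4:**
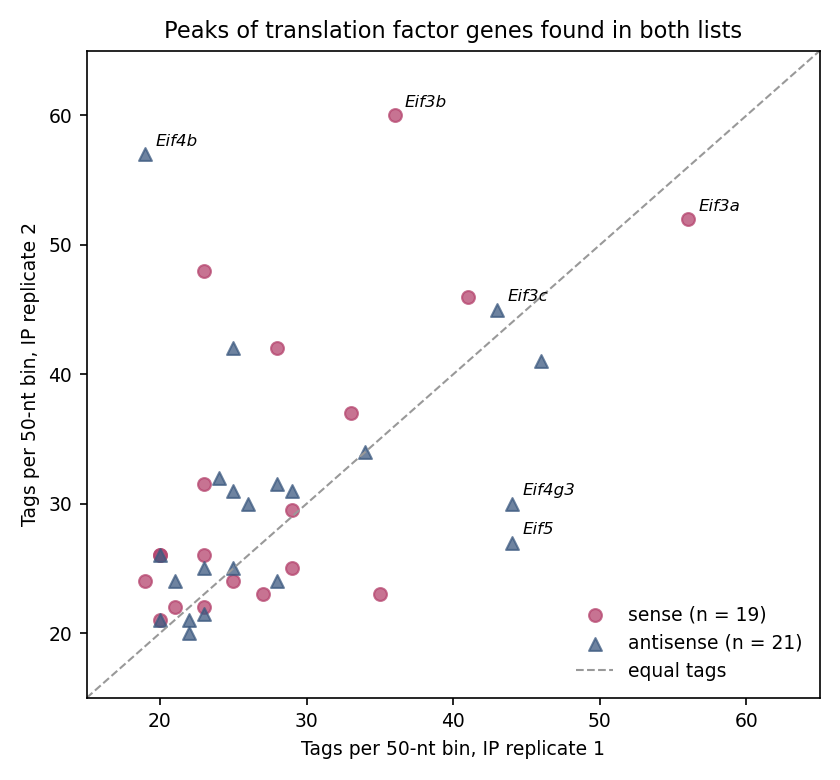
Tags per 50-nt bin in replicate 1 (horizontal) and replicate 2 (vertical) for the 40 peak pairs of translation factor genes that overlap on the same strand; circles are sense and triangles antisense, and the dashed line marks equal tags. Among the named points, 1 pair per gene, those of Eif3a (56 and 52 tags) and Eif3c (43 and 45) lie near the line, those of Eif3b and Eif4b above it, and those of Eif4g3 and Eif5 below it.

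Recurrence was then set beside height. Replicate 2 member peaks of 20 to under 30 tags had a replicate 1 counterpart in 22 of 96 cases (22.9%), those of 30 to under 50 in 15 of 58 (25.9%) and those of 50 or more in 3 of 20 (15%, 5.24 to 36). Over all peaks the shares were 14.1%, 30.8% and 30.1%. Of the 8 member peaks with 80 tags or more, 0 recurred (upper limit 32.4%), where 22.0% of the 150 such peaks of the series did. They lay in Eif3a (3 peaks), Eif4g2 (4) and Eif4g1 (1). Some were opposite strands of the same bin, so the 8 peaks are not independent and the limit is too narrow. The unshared replicate 2 peaks had a median of 28 tags, and the shared ones 26.5. In replicate 1 the unshared peaks had a median of 22 tags and the shared ones 25.

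Other genes of the translation pathway were read from a list of 60, by their role. Of these, 11 had a peak in replicate 1 (18.3%, where the share over all protein-coding genes was 3.68%) and 24 in replicate 2 (where that share was 7.25%), and 9 held a shared peak (15%, against 2.62%). Poly(A)-binding proteins and their partners had a shared peak in 3 of 9 genes: Pabpc1, Pabpc4 and Pabpn1. The strongest shared peak of Pabpc1, which bridges the poly(A) tail and eIF4G, was antisense with 27 and 32 tags in replicates 1 and 2. Cytosolic aminoacyl-tRNA synthetases and their scaffold proteins had one in 3 of 22 (Aars1, Hars1 and Nars1), and Nars1 reached 30 and 55 tags, antisense. Release and recycling factors had one in 1 of 7 (Gspt1) and genes of mTOR and stress control in 1 of 15. The latter was Atf4, a transcription factor translated when eIF2 is phosphorylated, with 23 and 25 tags, sense. Of 7 further initiation and elongation genes, Abcf1, whose product binds eIF2, had 8 peaks in replicate 1 and 16 in replicate 2, with 41 and 35 tags at its strongest shared peak. Of 209 ribosomal protein symbols in the name table, copies included, 19 held 27 peaks in replicate 1 and 48 held 127 peaks in replicate 2, to be read against the same shares of 3.68% and 7.25%. By position, 16 of the 27 recurred (59.3% of replicate 1 peaks, 40.7 to 75.5). A gene with a peak held 3.0 and 6.21 peaks on average among translation factors, 2.81 and 4.30 among all other genes, and 1.42 and 2.65 among ribosomal proteins. Gene span was not used here, and its part in these averages was not tested. In replicate 2, Eif3a, Eif4g1 and Eif4g2 held 65 of the 174 member peaks, and a member gene had a median of 3.5. The average of 6.21 thus leans on these genes and does not describe a typical factor gene.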

How the data were processed

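RNA that came down with RBM25 was sequenced from 2 immunoprecipitates, each with 1 peak list. The submitters' processing notes list HISAT2 and the genome build mRatBN7.2. Which program called the peaks, with which filters, and whether it used the inputs is not given in the sources used here. In both lists the deposited tags are a signal, whole in all 51-nt peaks and not scaled for depth as far as the values show. The deposited p-value of each peak is the authors' own and served only to split each list at its median. It took a single value for each tag number and strand in 51-nt peaks. Peaks are 1 to several 50-nt bins, and a position counted as shared at any overlap on the same strand. Location is read from the deposited annotation, in which a peak carries 1 gene name. Percentages have 95% Wilson intervals. No statistical test was run. The members and gene lists were chosen with earlier results of these data known. The rule for named genes took every member with a peak in both lists, with the tags of its strongest shared peak, or of its strongest peak in each list where none was shared. Strongest shared peaks were ranked by replicate 1 tags. It took every other member with a peak once, by its complex, and the 3 with the most tags in each list among those called in that list alone. Alternatives changed the p-value cut, the overlap, the strand, the boundary definition and the set of genes. The routines were tested on simulated data. Genome sequence was not used here. Values were computed in Python 3.11.15 with pandas 2.3.3, with scipy 1.17.1 for intervals and rank correlation, and with matplotlib 3.10.9 for plots.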

Additional observations from a re-analysis of the deposited data

How the results depend on the processing

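Counts of genes stayed within 1.5 times, and percentages within their intervals, in the alternatives tried, apart from the following. With each list cut at the median of its p-values, 9 genes had a shared peak in place of 15. In that cut, which also removed possible replicate 2 counterparts, 50% of replicate 1 peaks recurred in place of 74.1%. With coding sequence and intron each at least 10% of a peak, the boundary share was 54.4%. Without replicate 1, 28 genes had a peak, and without replicate 2, 18. Leaving out each replicate gave antisense shares of 48.1% to 50.6% and boundary shares of 60.7% to 70.9%. Identical start and end lowered recurrence to 63.0%, within the interval. Leaving out Eif3a, Eif4g1 and Eif4g2, chosen after seeing the data, gave 70.7%. No paired analysis was possible because the result comes from no test and the inputs, which share replicate numbers with the immunoprecipitates, were not analysed here. The smallest called peak limits what can be seen, and library depth is unknown.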
